A study of Homo sapiens with 12 samples.

Results

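Leukocyte integrins and their adhesion ligands were examined by RNA-Seq in HL60 cells (HL-60 in the sample labels), an established human myeloid leukemia line. The 10 genes were ITGAM, ITGAX, ITGAL, ITGAD, ITGB2, ITGA4, ITGB1, ITGB7, ICAM1 and SELPLG, chosen by name from the 59251 genes of the deposited count table. All 10 were found there, and 9 were among the 13318 genes that passed the expression filter, whereas ITGAD did not pass. The treatments lasted 48 h and used all-trans retinoic acid (ATRA) at 1 µM, 1 µM palbociclib, an inhibitor of the cyclin-dependent kinases CDK4 and CDK6 (CDK4/6i), or both drugs at these doses (CDK4/6i+ATRA, the combination of the labels). Non-treated cells, labelled untreated, served as controls. Each group had 3 libraries that the labels call biological replicates, 12 in all. The study describes its gene set scores from these groups as coming from independent experiments, but the labels do not say how the cultures were kept apart, and the p-values measure the spread between these libraries.

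Integrins are adhesion receptors made of an alpha and a beta subunit, both of which span the membrane. In leukocytes the beta2 subunit (ITGB2, CD18) pairs with alphaL (ITGAL, CD11a) as LFA-1, with alphaM (ITGAM, CD11b) as Mac-1, also known as complement receptor CR3, with alphaX (ITGAX, CD11c) or with alphaD (ITGAD, CD11d). The alpha4 subunit (ITGA4) pairs with beta1 (ITGB1) as VLA-4, which binds VCAM-1 and fibronectin, or with beta7 (ITGB7), which directs lymphocytes to the gut. ICAM1 is a ligand of LFA-1 and Mac-1, and SELPLG encodes PSGL-1, the glycoprotein on leukocytes that P-selectin binds during rolling on the vessel wall. CD11b is widely used as a marker of granulocytic and monocytic differentiation, and ATRA is known to drive HL60 cells along the granulocytic path.

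Total counts were 15392648 to 16935515 in non-treated cells, 15238994 to 17010052 after ATRA, 15576806 to 18679544 after CDK4/6i and 12230923 to 14415276 after both drugs. Levels are given as CPM after TMM normalization, and levels of the adhesion genes are compared with each other as CPM per kilobase of the deposited gene length, whereas marker lists are summed as CPM. Fold changes were fitted with edgeR's quasi-likelihood test on all 12 libraries, and a gene was called at a Benjamini-Hochberg adjusted p under 0.05 over the 13318 tested genes. A floor of 3 counts was equal to 0.156 to 0.275 CPM in these libraries, which covers counting error only, as no molecular identifiers are described.

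The myeloid identity of the cells was checked by marker genes. MPO, the granule peroxidase of promyelocytes, had mean levels (± SD of 3 libraries) of 6517 ± 168 CPM without treatment, 293 ± 27.4 CPM after ATRA, 3469 ± 66.4 CPM after CDK4/6i and 28.0 ± 5.15 CPM after both drugs. MPO was the most abundant of 5 promyelocyte markers in all groups but CDK4/6i+ATRA, where CD33 was, and their summed level was 6432 to 6759 CPM in non-treated libraries, 347 to 403 after ATRA, 3531 to 3665 after CDK4/6i and 119 to 137 after both drugs. CD33 was at 93.9 ± 2.50, 77.9 ± 3.41, 118 ± 3.43 and 99.8 ± 5.24 CPM (SD, n = 3) in non-treated, ATRA-, CDK4/6i- and CDK4/6i+ATRA-treated cells. The other 3 markers, ELANE, PRTN3 and AZU1, were listed at 0 in all 12 libraries. The table lists these 3 genes both on chromosome 19 and on an alternate contig, as it does for 4424 genes in all, and for 0 of the 10 adhesion genes. The lists of other cell types were low. The 4 T cell markers summed to 0.55 to 3.12 CPM, led by CD3E, and the 3 B cell markers to 12.6 to 24.97 CPM, nearly all from CD79A, with MS4A1 at 0. The 3 erythroid markers were at 0 throughout, and the highest sums were 0.248 CPM for 3 platelet markers, led by PPBP, 0.117 CPM for 2 endothelial markers, led by VWF, and 0.233 CPM for 3 epithelial and fibroblast markers, led by COL1A1. The MPO level moved with the treatments in the same libraries as the adhesion genes, and its part in their changes was not tested. In bulk RNA, a change in the share of cells that express a gene and a change of RNA per cell cannot be told apart.

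**Figure D1:**
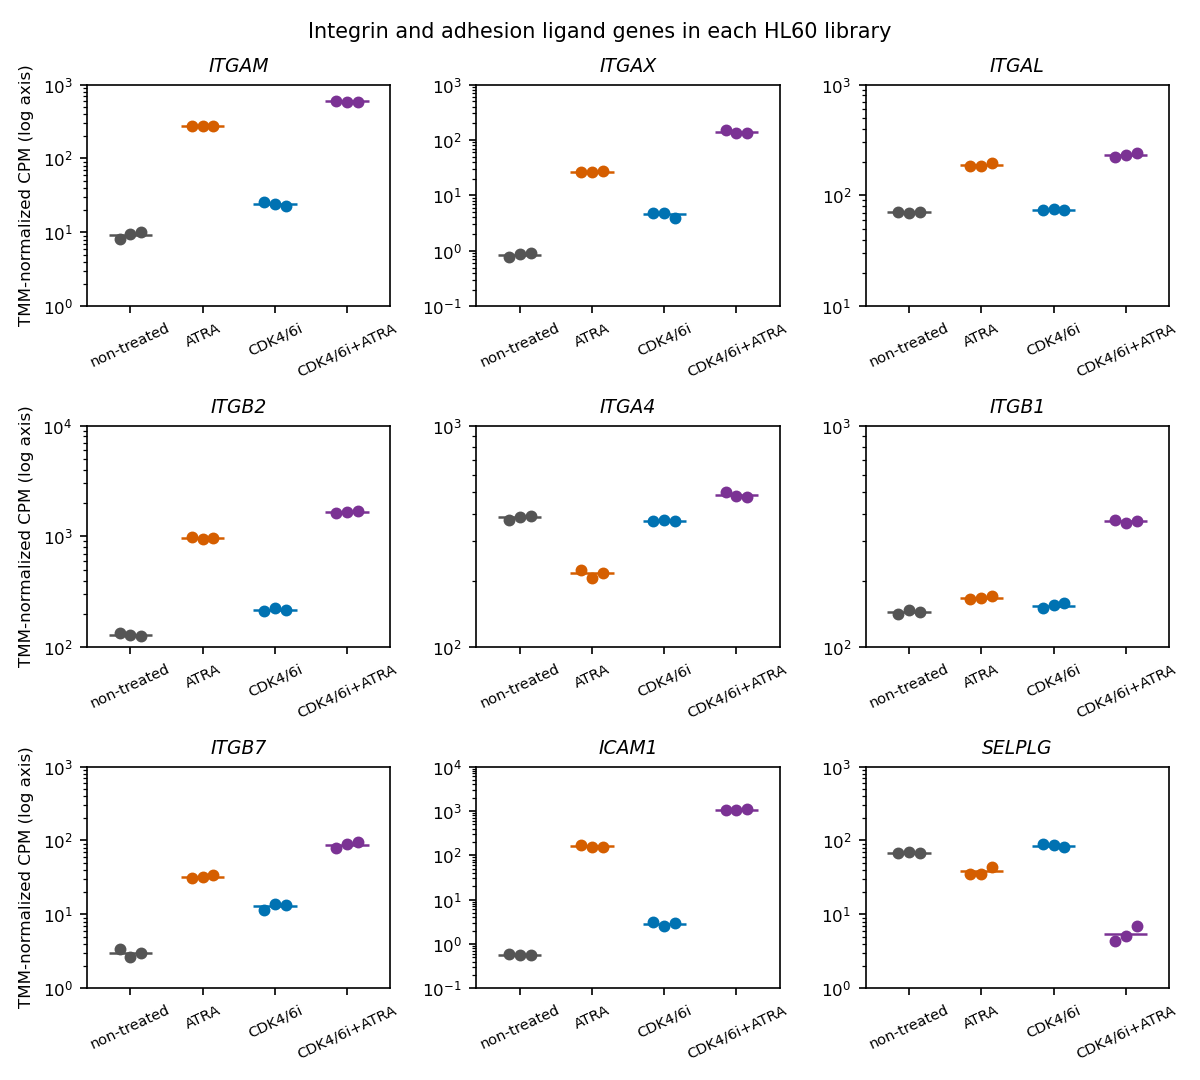
TMM-normalized CPM on a log axis (vertical) of 9 adhesion genes in the 4 treatment groups (horizontal), with points for the 3 libraries of a group and lines for their means (ITGAD, with 0 counts in 10 libraries, is not drawn). ICAM1 spans from 0.563 to 1088 CPM, and SELPLG is the only gene drawn that is lowest with CDK4/6i+ATRA.

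Compared with non-treated cells, 7 of the 9 tested genes rose and 2 fell with ATRA, against 32.1% of all tested genes called higher and 35.5% called lower. With CDK4/6i, 7 rose and 0 fell, against 28.3% and 27.9% of all tested genes. The count of 0 was also found with edgeR's unadjusted p under 0.05 and with DESeq2. With CDK4/6i+ATRA, 8 rose and 1 fell, against 41% and 40.7%. The comparisons share the non-treated libraries. Since the adhesion genes were chosen with earlier results of these data known, the shares of all tested genes are a reference only. CDK4/6i+ATRA was also compared with each drug alone, and 8 genes were higher and 1 lower in both cases, against 36.9% higher and 32.8% lower over ATRA and 39.1% higher and 39.5% lower over CDK4/6i. Scaling by library size alone moved the median of all genes by -0.27 on the log2 scale for both drugs against none, by -0.31 against ATRA, by -0.28 against CDK4/6i and by -0.32 for the interaction described later. It moved the share of calls that were higher from 53% to 31.6% for CDK4/6i+ATRA against ATRA and from 49.8% to 36.7% against CDK4/6i.

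The alpha subunits of the beta2 integrins lie on chromosome 16 of hg38. ITGAL is at 30472742 to 30523185, ITGAM at 31259975 to 31332877, ITGAX at 31355176 to 31382999 and ITGAD at 31393335 to 31426505, all on the plus strand. The gap between ITGAM and ITGAX is 22.3 kb and that between ITGAX and ITGAD 10.3 kb, whereas ITGAL lies 737 kb before ITGAM. These neighbours differed widely in level and in response.

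ITGAM was at 8.17, 9.59 and 9.97 CPM in the non-treated libraries, 276, 274 and 271 CPM with ATRA, 25.4, 24.4 and 23.0 CPM with CDK4/6i and 604, 578 and 586 CPM with CDK4/6i+ATRA. The 4 groups did not overlap. The log2 fold change over non-treated cells was 4.88 ± 0.06 (SE; edgeR adjusted p = 2.56e-50) after ATRA, 1.39 ± 0.08 (2.96e-21) after CDK4/6i and 5.99 ± 0.06 (6.65e-55) after both drugs. The last value is a 63.6-fold rise, and the rise over ATRA alone was 2.16-fold.

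ITGAX, whose product binds the complement fragment iC3b as that of ITGAM does, started from 0.781, 0.878 and 0.901 CPM, which was 13, 14 and 16 counts. It was at 26.1, 26.2 and 27.0 CPM with ATRA, 4.87, 4.89 and 3.86 CPM with CDK4/6i and 149, 131 and 136 CPM with CDK4/6i+ATRA. All 4 groups were separate, and the CDK4/6i+ATRA libraries were the highest. Log2 fold changes were 4.94 ± 0.14 with ATRA, 2.40 ± 0.20 with CDK4/6i and 7.33 ± 0.11 (SE; edgeR adjusted p = 1.92e-46) with CDK4/6i+ATRA. Over ATRA alone, ITGAX rose 5.23-fold with CDK4/6i+ATRA, beside 2.16-fold for ITGAM.

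ITGAL, the alpha chain of LFA-1, was already at 70.7, 69.2 and 70.8 CPM in non-treated cells. With ATRA it was at 185, 185 and 196 CPM and with CDK4/6i+ATRA at 220, 231 and 240 CPM, both above the range of non-treated cells. With CDK4/6i alone it was at 73.4, 75.9 and 73.8 CPM, and this difference did not pass the threshold (log2 0.08 ± 0.05 SE, edgeR adjusted p = 0.129). The log2 fold change was 1.43 ± 0.04 with ATRA and 1.71 ± 0.04 with CDK4/6i+ATRA. The rise over ATRA alone was 0.29 ± 0.04 (SE) on the log2 scale (edgeR adjusted p = 7.29e-09), but with scaling by library size alone this value was -0.02 (adjusted p = 0.616), beside a shift of all genes of -0.31.

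ITGAD had 0 counts in 10 libraries and 1 count in each of CDK4/6i+ATRA replicates 1 and 2. It was not detectable at this depth, so no fold change is given.

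ITGB2, the common beta subunit, lies on the minus strand of chromosome 21 at 44885953 to 44928815. It was at 134, 129 and 126 CPM in non-treated cells, 994, 953 and 974 CPM with ATRA, 213, 224 and 218 CPM with CDK4/6i and 1626, 1646 and 1706 CPM with CDK4/6i+ATRA. Thus the order of the groups was that of ITGAM and ITGAX. Log2 fold changes were 2.91 ± 0.04, 0.75 ± 0.04 and 3.68 ± 0.04 (SE; edgeR adjusted p = 8.48e-46, 9.63e-21 and 2.66e-50) with ATRA, CDK4/6i and CDK4/6i+ATRA.

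The makeup of the beta2 alpha RNA was followed as the share of each gene in the sum of ITGAL, ITGAM, ITGAX and ITGAD per kilobase. In non-treated cells, ITGAL took 86.6% ± 1.22, ITGAM 12.3% ± 1.14 and ITGAX 1.09% ± 0.0713 (SD, n = 3). With ATRA the ITGAM share was 57.8% ± 0.993 and the ITGAL share 36.8% ± 0.936. With CDK4/6i the ITGAL share was still 70.6% ± 1.28 and that of ITGAM 24.9% ± 0.894. CDK4/6i+ATRA gave 63.1% ± 0.545 ITGAM, 22.7% ± 1.19 ITGAL and 14.2% ± 0.701 ITGAX. Thus ITGAM was the larger share in the 6 ATRA-containing libraries, and ITGAL in the other 6. The log2 ratio of ITGAM to ITGAL was 3.47 higher after ATRA, 1.31 higher after CDK4/6i and 4.29 higher after both drugs than in non-treated cells (exact two-sided permutation test, p = 0.1 in each case, the smallest that 3 against 3 libraries can give). ITGAM was 11.3 ± 0.331 times as high as ITGAX per kilobase in non-treated cells and 10.8 ± 0.299 after ATRA, but 5.61 ± 0.530 after CDK4/6i and 4.45 ± 0.187 after both drugs (SD, n = 3).

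The sum of the alpha subunits rose from 15.5 ± 0.234 CPM per kilobase in non-treated cells to 98.2 ± 0.807 after ATRA, was 20.2 ± 0.458 after CDK4/6i and reached 194 ± 3.53 after both drugs (SD, n = 3). Its ratio to ITGB2 per kilobase stayed between 0.283 and 0.393 over all 12 libraries. Group means of this ratio were 0.376 ± 0.0165, 0.317 ± 0.00650, 0.290 ± 0.00777 and 0.367 ± 0.0118 in non-treated, ATRA-, CDK4/6i- and CDK4/6i+ATRA-treated cells (SD, n = 3). The non-treated and CDK4/6i+ATRA libraries overlapped in this ratio, and both were above those with a single drug. These are RNA ratios and do not measure the protein dimers.

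**Figure D2:**
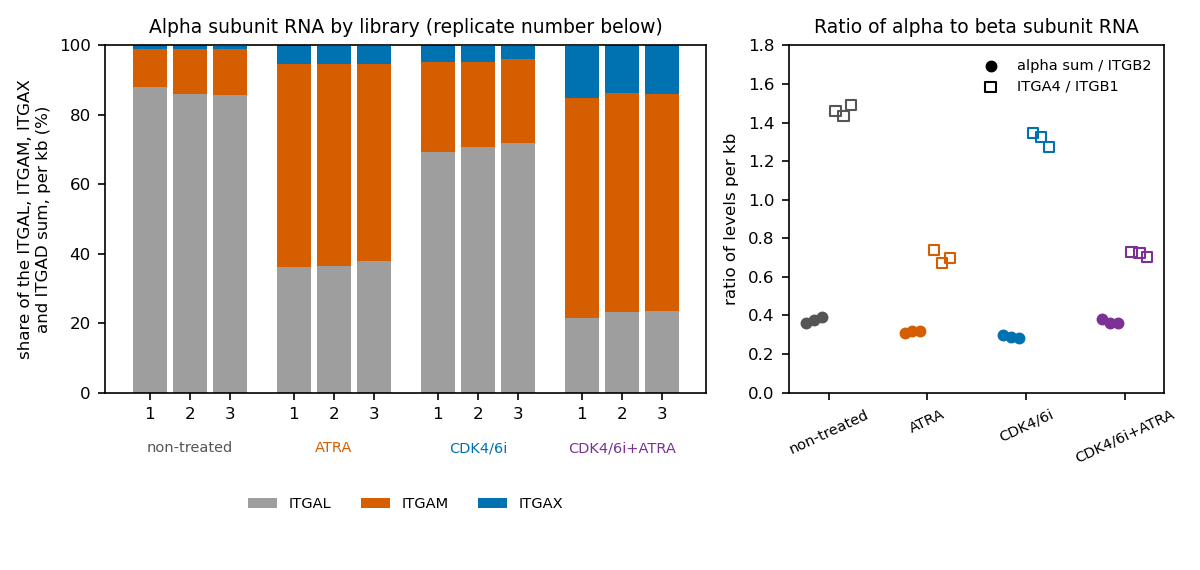
Left, share in percent (vertical) of ITGAL, ITGAM and ITGAX in the sum of the 4 beta2 alpha genes per kilobase, 1 bar per library, and right, ratio per kilobase (vertical) of the alpha sum to ITGB2 (filled circles) and of ITGA4 to ITGB1 (open squares), 3 libraries per group. The ITGAL share is 85.8% to 88.0% in non-treated libraries and 21.4% to 23.6% with CDK4/6i+ATRA, and the ITGA4 ratio is under 0.8 only in the libraries with ATRA.

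ITGA4 behaved differently from the beta2 alpha genes. It lies on the plus strand of chromosome 2 at 181457205 to 181538940, and was the highest of the 10 genes per kilobase in non-treated cells. Its level was 376, 387 and 393 CPM in non-treated cells, 222, 206 and 217 CPM with ATRA, 370, 375 and 369 CPM with CDK4/6i and 501, 483 and 478 CPM with CDK4/6i+ATRA. The ATRA libraries were the lowest and the CDK4/6i+ATRA libraries the highest. The log2 fold change over non-treated cells was -0.84 ± 0.04 (SE; edgeR adjusted p = 2.1e-25) with ATRA, and -0.05 ± 0.04 with CDK4/6i, which did not pass the threshold (adjusted p = 0.218). With CDK4/6i+ATRA it was 0.34 ± 0.04 (adjusted p = 9.14e-12). With scaling by library size alone the last value was 0.08 (adjusted p = 0.0586), with all genes shifted by -0.27. ATRA therefore lowered ITGA4 in the absence of CDK4/6i, whereas in its presence ITGA4 was 0.39 ± 0.04 higher with ATRA (edgeR adjusted p = 1.13e-13), or 0.12 higher (0.00462) with library size alone, where all genes shifted by -0.28.

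ITGB1, on the minus strand of chromosome 10 at 32900318 to 32958230, is the beta partner of many alpha subunits. It was at 141, 147 and 144 CPM in non-treated cells, 165, 167 and 170 CPM with ATRA, 150, 154 and 158 CPM with CDK4/6i and 375, 365 and 370 CPM with CDK4/6i+ATRA. The 3 groups other than CDK4/6i+ATRA were close to each other. The log2 fold change was 1.36 ± 0.04 with CDK4/6i+ATRA, but 0.22 ± 0.04 with ATRA and 0.10 ± 0.04 with CDK4/6i (SE; edgeR adjusted p = 6.21e-35, 1.73e-06 and 0.0223). The call with CDK4/6i was lost without non-treated replicate 1 (log2 0.09, adjusted p = 0.0958), CDK4/6i replicate 2 (0.10, 0.0558) or CDK4/6i replicate 3 (0.08, 0.115), and with no filter on low counts (0.09, 0.164).

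ITGB7 lies on the minus strand of chromosome 12 at 53191323 to 53207251. It was at 3.37, 2.63 and 2.98 CPM in non-treated cells, 31.1, 32.3 and 33.8 CPM with ATRA, 11.4, 13.8 and 13.3 CPM with CDK4/6i and 79.3, 89.0 and 94.3 CPM with CDK4/6i+ATRA. The 4 groups did not overlap, and their order was that of ITGAM. Log2 fold changes were 3.43 ± 0.11, 2.09 ± 0.13 and 4.86 ± 0.10 (SE; edgeR adjusted p = 2.49e-31, 1.97e-19 and 2.27e-40) with ATRA, CDK4/6i and CDK4/6i+ATRA. Of its exon length, 52.4% is shared with ZNF740 on the opposite strand, and reads from either gene cannot be told apart if strand was not used in counting. ZNF740 itself had log2 fold changes of 0.09 ± 0.06, -0.02 ± 0.06 and 0.20 ± 0.06 (SE; edgeR adjusted p = 0.177, 0.766 and 0.00277) in the same comparisons.

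The alpha4 partners also shifted in proportion. Per kilobase, ITGB7 was 0.0299 ± 0.00432 of ITGB1 in non-treated cells, 0.277 ± 0.00746 after ATRA, 0.119 ± 0.00953 after CDK4/6i and 0.339 ± 0.0321 after both drugs (SD, n = 3). Thus beta1 RNA remained the more abundant of the alpha4 partners in each of the 12 libraries. ITGA4 was 1.46 ± 0.0282 of ITGB1 in non-treated cells, 1.31 ± 0.0379 with CDK4/6i, 0.702 ± 0.0325 with ATRA and 0.719 ± 0.0130 with CDK4/6i+ATRA (SD, n = 3), and the last 2 groups overlapped.

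Among the ligands, ICAM1 had the largest change of the 9 tested genes with ATRA and with both drugs. With CDK4/6i the largest estimate was that of ITGAX, at 2.40 ± 0.20 beside 2.31 ± 0.25 (SE) for ICAM1. Their gap was smaller than either SE, so these 2 genes are not ranked. ICAM1 lies on the plus strand of chromosome 19 at 10271120 to 10286615. Non-treated libraries held 10, 9 and 10 counts, or 0.601, 0.564 and 0.563 CPM. The level was 173, 156 and 151 CPM with ATRA, 3.11, 2.51 and 2.98 CPM with CDK4/6i and 1063, 1037 and 1088 CPM with CDK4/6i+ATRA. Each group was far from the next. Log2 fold changes were 8.10 ± 0.10 after ATRA, 2.31 ± 0.25 after CDK4/6i and 10.83 ± 0.09 after both drugs (SE; edgeR adjusted p = 9.31e-49, 3.11e-11 and 1.91e-57). CDK4/6i+ATRA-treated cells had 6.65 times the ICAM1 level of cells treated with ATRA alone.

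SELPLG went the opposite way. The gene is on the minus strand of chromosome 12 at 108621895 to 108633894. It was at 67.2, 68.7 and 68.4 CPM in non-treated cells and at 88.6, 85.4 and 81.5 CPM with CDK4/6i, but at 35.3, 35.2 and 43.5 CPM with ATRA and at 4.31, 5.17 and 6.94 CPM with CDK4/6i+ATRA. CDK4/6i libraries were above, and both ATRA-containing groups below, the range of non-treated cells. The log2 fold change was -0.84 ± 0.06 after ATRA, 0.32 ± 0.06 after CDK4/6i and -3.62 ± 0.10 after both drugs (SE; edgeR adjusted p = 2.19e-16, 5.51e-06 and 9.07e-35). The last is a 12.3-fold lower level than in non-treated cells and rests on 47, 58 and 84 counts. Against ATRA alone, CDK4/6i+ATRA lowered SELPLG 6.90-fold.

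**Figure D3:**
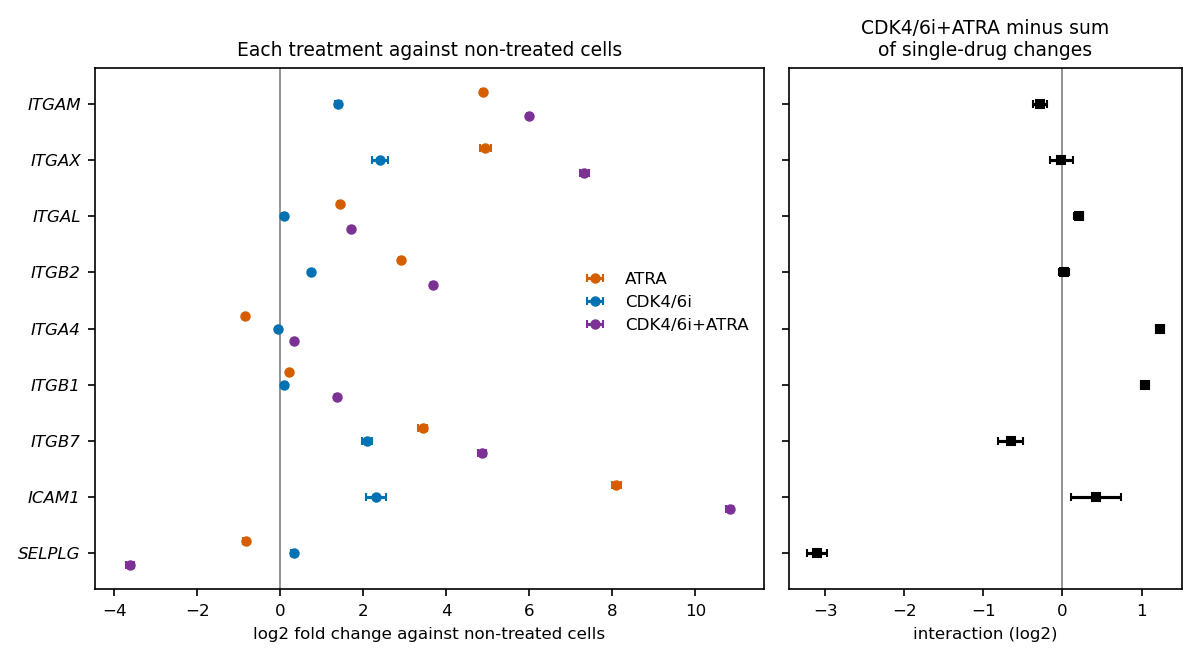
Left, log2 fold change against non-treated cells (horizontal) of 9 adhesion genes (vertical) with ATRA, CDK4/6i or CDK4/6i+ATRA, and right, the interaction on the log2 scale, as edgeR estimates from 3 libraries per group with bars for standard errors. ICAM1 reaches 10.83 with CDK4/6i+ATRA and SELPLG -3.62, and the interaction ranges from -3.11 for SELPLG to 1.23 for ITGA4.

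The joint effect of the drugs was tested as the interaction, which subtracts the log2 fold changes of the single drugs from that of CDK4/6i+ATRA, so that an interaction of 0 means fold changes that multiply. It was higher than 0 for 3 of the 9 tested genes and lower for 3, against 24.5% and 27% of all tested genes. The positive ones were ITGA4 (1.23 ± 0.05 SE, edgeR adjusted p = 1.99e-25), ITGB1 (1.05 ± 0.05, 1.62e-22) and ITGAL (0.20 ± 0.06, 0.00339). The negative ones were SELPLG (-3.11 ± 0.13, 2.61e-26), ITGB7 (-0.66 ± 0.15, 0.000306) and ITGAM (-0.28 ± 0.09, 0.00564). For SELPLG, CDK4/6i alone raised the level whereas CDK4/6i added to ATRA changed it by -2.79 ± 0.11 on the log2 scale. The interaction did not pass the threshold for ITGAX (-0.02 ± 0.15, adjusted p = 0.943), ITGB2 (0.02 ± 0.06, 0.806) or ICAM1 (0.43 ± 0.32, 0.269).
Calls near the threshold depended on single choices. ITGAM lost its interaction without non-treated replicate 1 (-0.21, edgeR adjusted p = 0.0655), and ITGAL with library size alone (-0.11, 0.0853) and with no filter on low counts (0.12, 0.282). With library size alone, the share of interaction calls that were positive moved from 47.5% to 18.5%, and ITGB2 was called at -0.30 (adjusted p = 1.21e-06), close to the shift of all genes of -0.32.

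The levels per kilobase give the order of the adhesion genes in each state. In non-treated cells the order was ITGA4 (52.3 ± 1.16 CPM per kilobase, SD, n = 3), ITGB2 (41.4 ± 1.26), ITGB1 (35.8 ± 0.798), SELPLG (24.4 ± 0.291), ITGAL (13.5 ± 0.173), ITGAM (1.92 ± 0.196), ITGB7 (1.07 ± 0.130), ICAM1 (0.194 ± 0.00725) and ITGAX (0.170 ± 0.0126), with no overlap between neighbours. With ATRA, ITGB2 led at 310.3 ± 6.53, followed by ITGAM (56.8 ± 0.558) and ICAM1 (53.9 ± 3.88), which overlapped. CDK4/6i put ITGB2 first (69.6 ± 1.67) but otherwise kept the order of non-treated cells, except that ITGA4 was second. There, ITGAM and ITGB7 overlapped, as did ICAM1 and ITGAX. With CDK4/6i+ATRA the order was ITGB2 (529 ± 13.2), ICAM1 (358 ± 8.55), ITGAM (122 ± 2.78), ITGB1 (92.1 ± 1.23), ITGA4 (66.2 ± 1.66), ITGAL (44.1 ± 1.89), ITGB7 (31.2 ± 2.71), ITGAX (27.6 ± 1.82) and SELPLG (1.96 ± 0.480), and of these ITGB7 and ITGAX overlapped. Thus SELPLG moved from the fourth place to the last of the 9 tested genes.

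Exon overlaps bear on some of these levels, since the use of strand in counting is unstated in the sources used here. The deposited exons of ITGAM, ITGAL, ITGAD, ICAM1 and SELPLG overlap no other gene. Apart from ITGB7, ITGA4 shares 21.4% of its length with CERKL, which had 78 counts over all libraries, and ITGAX shares 8.64% with LOC100422479, which had 0. ITGB2 shares 5.16% with its antisense gene ITGB2-AS1, which held 576 counts in all against 124961 for ITGB2. SNORA86 lies within an exon of ITGB1 on the same strand (3.46% of its length) and had 0 counts.

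The genes whose pattern over the 12 libraries was most like that of ITGAM, by Pearson's r of log2(CPM + 1) among 9299 other genes with a mean of at least 5 CPM, were HK3 (0.9991), CTSD (0.9991), ITGB2 (0.9988), BTNL8 (0.9986) and MPEG1 (0.9984). ITGB2 was most like HK3 (0.9999), CTSD (0.9995), MPEG1 (0.9991), S100A9 (0.9990) and ITGAM (0.9988). Among those most like ITGAX were BAZ2B (0.9990), EGR1 (0.9988), ARAP1 (0.9987) and CD300C (0.9986). These coefficients describe 4 groups of 3 libraries that share their treatment, so they mainly compare 4 group levels. HK3, a myeloid hexokinase, was at 5.96 ± 0.199, 167 ± 2.48, 15.2 ± 0.725 and 398 ± 9.58 CPM (SD, n = 3) in non-treated, ATRA-, CDK4/6i- and CDK4/6i+ATRA-treated cells, and S100A9, a calcium-binding protein abundant in neutrophils, at 39.3 ± 5.18, 1727 ± 74.5, 127 ± 6.19 and 5070 ± 187 CPM. Genes like ITGAX included EGR1, an immediate early transcription factor, at 4.50 ± 0.407, 106 ± 3.91, 18.8 ± 1.37 and 531 ± 7.77 CPM. Among the adhesion genes, r with ITGAM was 0.999 for ITGB2, 0.993 for ICAM1, 0.986 for ITGAL and 0.979 for ITGAX, but -0.1 for ITGA4 and -0.835 for SELPLG.

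Of the 10 adhesion genes, 5 had a promoter entry from RefSeq (GRCh38.p14), 250 bases before to 50 bases after the gene start. Sequences are shown where the entry has the deposited gene start, whatever the response of the gene. These were found for ITGAM, ITGB1, ITGB7 and ICAM1. For ITGA4 and a further entry of ITGB1 the RefSeq start differs from the deposited gene start (181457386 against 181457205 for ITGA4). Capitals mark 4 short motifs searched on both strands: GAGGAA, a core bound by PU.1 and related factors, GGGCGG, the Sp1 box, AGGTCA, the half-site of nuclear receptors such as retinoic acid receptors, and GGAANTTCC, a form of the NF-kB site. Of 35116 promoters of the same length, 27.9% hold GAGGAA, 45% GGGCGG, 13.8% AGGTCA and 0.965% GGAANTTCC.
ITGAM, chr16:31259725-31260024, plus strand: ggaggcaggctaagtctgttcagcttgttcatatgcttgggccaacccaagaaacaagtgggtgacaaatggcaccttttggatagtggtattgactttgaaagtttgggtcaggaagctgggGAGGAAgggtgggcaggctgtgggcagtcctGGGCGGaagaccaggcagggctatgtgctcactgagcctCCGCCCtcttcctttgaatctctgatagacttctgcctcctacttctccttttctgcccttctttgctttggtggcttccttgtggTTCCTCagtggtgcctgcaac
ITGB7, chr12:53207202-53207501, minus strand: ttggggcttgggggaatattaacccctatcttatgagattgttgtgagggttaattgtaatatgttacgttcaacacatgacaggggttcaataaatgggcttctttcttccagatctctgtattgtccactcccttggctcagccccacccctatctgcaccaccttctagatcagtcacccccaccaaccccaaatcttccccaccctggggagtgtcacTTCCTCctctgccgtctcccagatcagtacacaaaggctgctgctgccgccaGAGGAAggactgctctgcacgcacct
ICAM1, chr19:10270870-10271169, plus strand: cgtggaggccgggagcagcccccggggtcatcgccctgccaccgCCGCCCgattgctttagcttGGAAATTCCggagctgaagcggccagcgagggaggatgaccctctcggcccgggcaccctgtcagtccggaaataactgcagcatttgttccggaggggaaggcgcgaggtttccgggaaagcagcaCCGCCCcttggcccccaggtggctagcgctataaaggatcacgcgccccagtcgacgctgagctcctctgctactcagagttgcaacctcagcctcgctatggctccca
ITGB1, chr10:32958181-32958480, minus strand: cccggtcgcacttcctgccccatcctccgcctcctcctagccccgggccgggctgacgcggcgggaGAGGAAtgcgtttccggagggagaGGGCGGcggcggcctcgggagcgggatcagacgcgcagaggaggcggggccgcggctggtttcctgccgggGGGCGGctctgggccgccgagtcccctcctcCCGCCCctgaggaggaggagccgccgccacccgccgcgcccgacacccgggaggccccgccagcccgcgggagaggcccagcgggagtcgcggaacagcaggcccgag
Counting the first base of the gene as 1, ITGAM has GAGGAA at -127, its reverse complement at 30, the Sp1 box at -96 and the reverse of that box at -57. ITGB7 has the PU.1-like core at -28, reversed, and at 25. ICAM1 has the NF-kB-like motif at -186 and reversed Sp1 boxes at -206 and -59. ITGB1 has the PU.1-like core at -184 and Sp1 boxes at -160, -89 and, reversed, -58. The ITGA4 window and the other RefSeq start of ITGB1 hold no match to these letters. The AGGTCA half-site was not found in any of the 6 windows. A match describes the letters only and was not tested for binding.

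Other parts of the adhesion machinery were followed in gene lists, with 4 genes named from each where as many passed the rule. The lists, too, were chosen with earlier results of these data known. Of the 18 other integrin subunits, 8 were tested and 6 rose with CDK4/6i+ATRA (median log2 fold change of the list 1.94, of all tested genes 0.02), where 41% of all tested genes rose. ITGA5, the fibronectin receptor alpha chain, rose from 45.5 ± 2.37 to 279 ± 5.49 CPM (SD, n = 3), a log2 fold change of 2.61 ± 0.05 (SE), against 0.75 ± 0.05 with ATRA and -0.05 ± 0.05, which did not pass the threshold, with CDK4/6i. ITGA6, a laminin receptor chain, rose by 2.12 ± 0.05 with ATRA and by 2.35 ± 0.05 with CDK4/6i+ATRA. ITGA1, a collagen receptor chain, was at 0.225 ± 0.241 CPM in non-treated cells and 32.2 ± 2.48 CPM with CDK4/6i+ATRA (SD, n = 3), and 4.65% of its exon length is shared with PELO on the same strand. Its non-treated libraries held 1, 8 and 2 counts, and leaving out 1 library put its log2 fold change of 7.15 between 6.71 and 8.39. ITGA2B rose by 1.91 ± 0.19 with CDK4/6i and by 0.63 ± 0.22 with ATRA (SE), and the latter call was lost without non-treated replicate 1 (0.49, edgeR adjusted p = 0.062) or 2 (0.52, 0.051). With ATRA 6 and with CDK4/6i 2 of the 8 tested subunits rose (list medians 0.74 and 0.08, medians of all genes -0.03 and 0.02), beside 32.1% and 28.3% of all tested genes.

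Of the 14 genes of integrin activation, which link the beta tail to talin, kindlin and Rap1, 13 were tested. With ATRA 11 rose and 1 fell (list median 0.77), with CDK4/6i 7 rose and 2 fell (0.20), and with CDK4/6i+ATRA 9 rose and 4 fell (1.27). Over all tested genes, 32.1% rose and 35.5% fell with ATRA, 28.3% and 27.9% with CDK4/6i, and 41% and 40.7% with both. The largest changes with CDK4/6i+ATRA were those of APBB1IP, the Rap1 effector RIAM (4.07 ± 0.06 SE), RASSF5, the Rap1 effector RAPL (2.28 ± 0.04), FERMT3, the leukocyte kindlin (2.04 ± 0.04), and SKAP2, an adaptor (1.94 ± 0.04). APBB1IP was high in the 2 groups with ATRA, at 10.0 ± 0.707 CPM in non-treated cells, 191 ± 3.54 after ATRA, 9.06 ± 0.468 after CDK4/6i and 169 ± 3.42 after both drugs (SD, n = 3). FERMT3 was at 255 ± 9.44, 561 ± 12.5, 345 ± 2.20 and 1049 ± 6.66 CPM in the same order.

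Of the 12 genes of signalling downstream of bound integrins, 11 were tested, and 8 rose and 2 fell with ATRA (list median 0.93), 7 rose and 2 fell with CDK4/6i (0.35) and 9 rose and 2 fell with CDK4/6i+ATRA (1.3). The shares of all tested genes were again 32.1% and 35.5%, 28.3% and 27.9%, and 41% and 40.7%. PXN (paxillin) rose from 1.09 ± 0.421 CPM to 24.5 ± 3.43 with ATRA and 76.1 ± 3.25 with CDK4/6i+ATRA, and was 1.44 ± 0.419 CPM with CDK4/6i (SD, n = 3). TYROBP, the adaptor DAP12, had log2 fold changes of 2.12 ± 0.06, 1.62 ± 0.06 and 3.93 ± 0.05 (SE) with ATRA, CDK4/6i and CDK4/6i+ATRA. LCP2, the adaptor SLP-76, rose by 1.92 ± 0.04, 0.37 ± 0.04 and 2.79 ± 0.04, and LIMS1 (PINCH1) by 1.66 ± 0.04, 0.22 ± 0.04 and 2.54 ± 0.04.

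Of the 9 other integrin ligands, 4 were tested, ICAM2, ICAM3, ICAM4 and F11R. With ATRA and with CDK4/6i+ATRA 3 rose and ICAM2 fell (list medians 1.15 and 2.03), and with CDK4/6i 3 rose (0.62), against 32.1% higher and 35.5% lower of all tested genes with ATRA, 41% and 40.7% with both drugs and 28.3% higher with CDK4/6i. ICAM3, the ICAM of resting leukocytes, was at 137 ± 2.39, 299 ± 12.3, 249 ± 4.70 and 781 ± 49.9 CPM in non-treated, ATRA-, CDK4/6i- and CDK4/6i+ATRA-treated cells (SD, n = 3). F11R (JAM-A) rose by 1.17 ± 0.05, 0.31 ± 0.05 and 1.54 ± 0.05 on the log2 scale (SE).

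The selectin pathway was of interest because SELPLG fell. Of its 16 genes 14 were tested, and 8 rose and 3 fell with ATRA (list median 0.37), 7 rose and 4 fell with CDK4/6i (0.27, or 0.18 with genes at the floor set to their bounds) and 9 rose and 5 fell with CDK4/6i+ATRA (0.91). All tested genes gave 32.1% higher and 35.5% lower, 28.3% and 27.9%, and 41% and 40.7% in these comparisons. CD44, with 1 count in each non-treated library, is among the genes counted as risen in each comparison. With CDK4/6i its level was only 0.246 CPM, near the floor (edgeR adjusted p = 0.0418). SELP (P-selectin) held at most 2 counts in the non-treated and CDK4/6i libraries, but 955 to 1000 counts with ATRA and 1600 to 1789 with CDK4/6i+ATRA. Against a floor of 3 counts per library, SELP was at least 319-fold higher with ATRA and at least 830-fold higher with CDK4/6i+ATRA than in non-treated cells. Thus RNA of the selectin rose in the libraries where RNA of its ligand PSGL-1 fell.
Among the enzymes that build selectin ligands, ST3GAL4, a sialyltransferase, was at 102 ± 2.21, 44.1 ± 3.32, 81.7 ± 2.71 and 14.2 ± 0.959 CPM in non-treated, ATRA-, CDK4/6i- and CDK4/6i+ATRA-treated cells (SD, n = 3). Under CDK4/6i+ATRA its log2 fold change was -2.85 ± 0.07 (SE, edgeR adjusted p = 1.98e-37). B4GALT1, a galactosyltransferase, rose by 2.46 ± 0.05 with CDK4/6i+ATRA and was lower with CDK4/6i alone (-0.19 ± 0.05, adjusted p = 0.00297). The fucosyltransferase FUT7, chosen after its values were seen, was at 27.4 ± 2.16 CPM without treatment, 8.10 ± 0.611 after ATRA, 28.2 ± 1.71 after CDK4/6i and 5.37 ± 0.102 after both drugs (SD, n = 3). The other enzymes of the list moved both ways with CDK4/6i+ATRA. Log2 fold changes were 1.346 for GCNT1, 1.611 for TPST1, 1.504 for TPST2 and 0.297 for ST3GAL6. They were -1.19 for FUT4 and -0.486 for C1GALT1, and each of these changes passed the threshold.

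**Figure D4:**
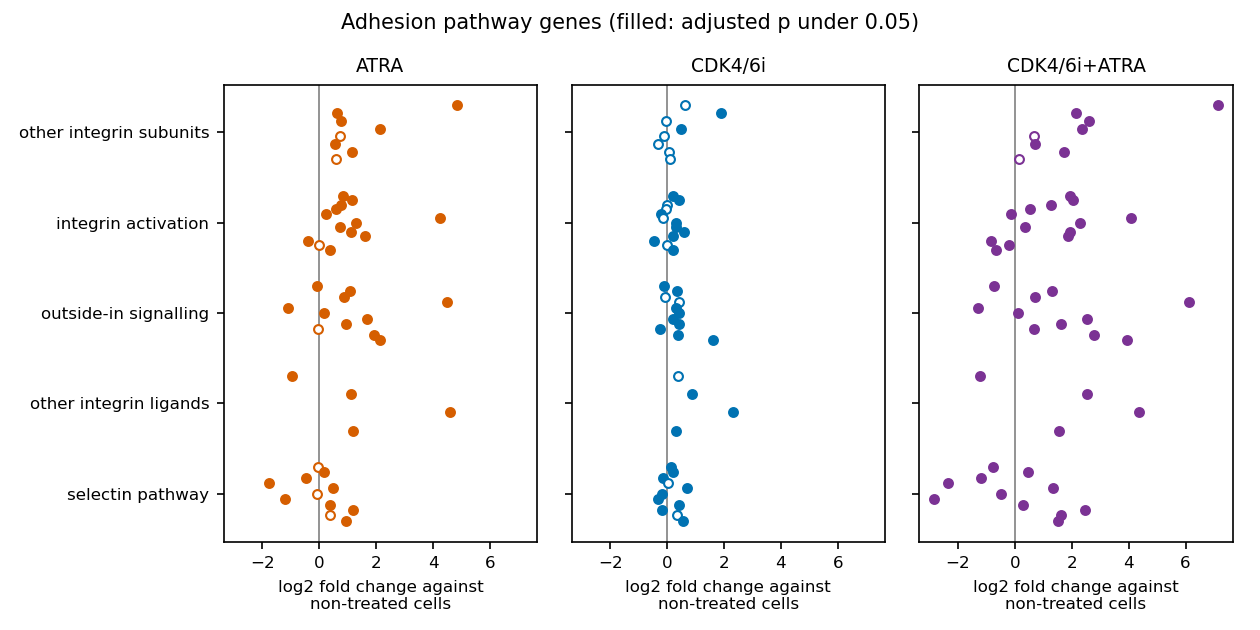
Log2 fold change against non-treated cells (horizontal) of tested genes in 5 adhesion lists (vertical), 1 panel per treatment and 1 point per gene, filled where the edgeR adjusted p is under 0.05 (SELP and CD44, whose non-treated libraries held 3 counts or fewer, are left out). ITGA1, with 1 to 8 counts in non-treated libraries, is the point farthest to the right at 7.15 with CDK4/6i+ATRA, and ST3GAL4 the lowest at -2.85.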

How the data were processed

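Libraries were prepared with the NEBNext Ultra II Directional kit. The authors trimmed reads with Trimmomatic 0.33, aligned them to hg38 with STAR 2.7.11a and deposited raw gene counts under the NCBI RefSeq annotation, as whole numbers without normalization. The submitters' processing notes name both tools. The methods name RSEM for counting, whereas the table has the layout of featureCounts, and the use of strand is not given in the sources used here. No per-sample column was left unused.
filterByExpr with the 4 groups kept 13318 genes, which were normalized with TMM and tested with edgeR 4.0.16 (R 4.3.3) in a quasi-likelihood model of the 4 groups on 12 libraries, with 8 residual degrees of freedom, 6 comparisons, and p-values adjusted after Benjamini and Hochberg for the tested genes at a cutoff of 0.05. Across genes the common biological variation coefficient came to 3.70%. Libraries of a group differed by more than counting noise (chi-square over its degrees of freedom, 1.85 to 6.84). CPM used TMM-scaled library sizes, and CPM per kilobase the deposited length. The ratio of ITGAM to ITGAL was tested by an exact permutation test.
The genes named are all 10 adhesion genes, from each of 5 pathway lists up to 4 genes with the largest change with CDK4/6i+ATRA among those called with a mean of at least 5 CPM, and the 5 genes most like ITGAM, ITGAX and ITGB2, of which 2 genes are not reported here. FUT7 and the selectin ligand enzymes given after it were named outside this rule. Beside the pathway lists, 7 lists of cell type markers were used. The members and lists were chosen with earlier results of these data known. Values were also computed with other scaling (library size alone, or size factors from DESeq2), other filters (10 counts or more in all libraries, or 1 count in any), the Wald test of DESeq2 1.42.0, a replicate block, fits of the compared groups only, the ratio of raw counts, and each library left out. The tests were tried on simulated counts with 200 changed genes. With edgeR, 179 were recovered for ATRA, 168 for CDK4/6i+ATRA and 173 for the interaction. False calls were 8 of 187, 6 of 174 and 16 of 189 in the same order. Figures were drawn with matplotlib 3.10.9 (python 3.11.15, numpy 2.4.6).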

Additional observations from a re-analysis of the deposited data

Results flagged for a closer look

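The effect of one drug differed with the presence of the other, by the interaction of the edgeR quasi-likelihood fit (Benjamini-Hochberg adjusted p under 0.05), for 6 of the 9 tested adhesion genes, 3 higher and 3 lower than 0, against 24.5% and 27% of all tested genes. The interaction was 1.23 for ITGA4, 1.05 for ITGB1, 0.20 for ITGAL, -0.28 for ITGAM, -0.66 for ITGB7 and -3.11 for SELPLG on the log2 scale. With library size alone ITGAL was at -0.11 (adjusted p = 0.0853), and with no filter on low counts at 0.12 (0.282). ITGA4 and SELPLG each had a called change that turned its sign. ATRA changed ITGA4 by -0.84 in the absence and by 0.39 in the presence of CDK4/6i (0.12 with library size alone, adjusted p = 0.00462), and CDK4/6i changed SELPLG by 0.32 in the absence and by -2.79 in the presence of ATRA.

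Of the 16 pathway genes named by rule whose interaction was evaluated, 13 had it called, against 24.5% higher and 27% lower of all tested genes. They were chosen by the size of their change with CDK4/6i+ATRA, which enters the interaction. It was 1.92 for ITGA5, 1.69 for ITGA1, 1.48 for B4GALT1, 1.22 for PXN, 0.70 for RASSF5, 0.66 for LIMS1, 0.52 for ICAM3, 0.49 for LCP2, 0.47 for FERMT3, 0.24 for SKAP2 and 0.18 for TYROBP, and -0.27 for ITGA6 and -1.32 for ST3GAL4. Calls for ITGA1 (adjusted p = 0.0453) and TYROBP (0.0436) were close to the threshold. Leaving out a single library ended the call in 5 of 12 fits for ITGA1, as without non-treated replicate 2 (0.43, adjusted p = 0.818), in 9 of 12 for TYROBP, and without non-treated replicate 1 that for PXN (0.87, adjusted p = 0.0511). SKAP2 was at -0.0777 (adjusted p = 0.197) with library size alone and at 0.16 (0.0712) with no filter on low counts. Over the alternatives run, the lowest interaction was 0.38 for RASSF5, 0.34 for LIMS1, 0.20 for ICAM3, 0.18 for LCP2 and 0.15 for FERMT3. The negative interactions ran from -0.60 to -0.21 for ITGAM and from -0.59 to -0.21 for ITGA6. The ITGAM call was lost without non-treated replicate 1 (-0.21, adjusted p = 0.0655). B4GALT1 was lower with CDK4/6i alone (-0.19) but higher with CDK4/6i added to ATRA (1.29).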

How the results depend on the processing

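The total of called genes and the counts of called adhesion genes stayed within 1.5 times under each alternative run. With library size alone, genes called higher went from 4920 to 2956 for both drugs against ATRA and from 3258 to 1375 for the interaction, and those called lower for the interaction from 3594 to 6061. Of 1011 values of adhesion genes, 991 kept direction and side of the threshold, 7 lost the call and 13 changed sign, and of 1873 values of pathway genes these were 1837, 25 and 8, with 3 calls gained.
With library size alone, the combination against ATRA gave -0.0214 for ITGAL and -0.0804 for ITGA6, and against CDK4/6i -0.0484 for ITGA2B. The interaction was then -0.11 for ITGAL, -0.30 for ITGB2, -0.26 for F11R, -0.0777 for SKAP2 and -0.14 for TYROBP, beside shifts of all genes of -0.31, -0.28 and -0.32 in the 3 comparisons. Under this scaling it was called for F11R (edgeR adjusted p = 0.000614), APBB1IP (-0.34, 0.00353) and ITGA2B (-0.72, 0.023), which the main fit did not call. ITGA2B was also called without non-treated replicate 3 (-0.69, edgeR adjusted p = 0.0415). The interaction of ITGB2 was -0.0018 with DESeq2's size factors, -0.0017 with the DESeq2 test and -0.0655 with no filter, and that of F11R -0.0217 with no filter. Leaving out a library put the interaction of ITGAX between -0.1244 (without CDK4/6i replicate 3) and 0.0484, of ITGB2 between -0.0112 and 0.0336 (without non-treated replicate 3) and of APBB1IP between -0.0882 (without non-treated replicate 3) and 0.0143. The call for TYROBP was lost in 9 of these 12 fits, with DESeq2's size factors (0.16, adjusted p = 0.0804), the DESeq2 test (0.16, 0.111) and no filter (0.0966, 0.594), that for ITGA1 in 5, with library size alone (adjusted p = 0.116) and with no filter (0.0509), that for SKAP2 with no filter (0.16, 0.0712), and that for PXN without non-treated replicate 1 (0.87, 0.0511).
Replicate numbers did not pair the libraries. Correlations of deviations between same-numbered libraries were -0.07 to 0.033, 0 of 18 pairs were over 0.1, and 1 of 12 libraries correlated best with its own number. With the replicate block, 8915, 7392 and 10824 genes were called with ATRA, CDK4/6i and both drugs against non-treated cells, and 6775 for the interaction, against 9006, 7482, 10885 and 6852 without it. It ended no call of an adhesion gene, but that of the TYROBP interaction (adjusted p = 0.0517). For the interaction, only the groups compared is the same fit and was not run. SELP with CDK4/6i and its interaction were not evaluated, since both groups were at the floor. Depth limits ITGAD, and ICAM1 and ITGAX in non-treated cells.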
